A study of Mus musculus with 9 samples.

Results

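The genes described here encode elastic fibre proteins and lysyl oxidases. There were 10 members, chosen by symbol: the elastic fibre core protein Eln, the fibrillins Fbn1 and Fbn2, the fibulins Fbln1, Fbln2, Fbln5 and Efemp2 (fibulin-4), and the oxidases Lox, Loxl1 and Loxl2. A gene was measured through a probe set, the group of short probes that an array gives to a transcript, and a probe set counted only if the annotation paired it with that symbol alone. By this rule 7 of the 10 members were measured, each by 1 probe set, out of 19938 genes with such a probe set on the array. Fbn1 and Efemp2 were not in the annotation used here, and Loxl2 shared its probe set with another gene, so these 3 were not analysed here.

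The series profiled RNA of mouse 3T3 cells, an immortalised line of embryonic fibroblasts, on 9 Affymetrix Mouse Gene 1.0 ST arrays. All cells expressed a short hairpin RNA (shRNA). In the wild-type cells it was an irrelevant one, and in the knock-down cells it targeted Trap-80 (Med17), a subunit of the Mediator complex that links transcription factors to RNA polymerase. There were 3 groups of 3 independent cultures: wild type without stimulation, wild type after 1 h with TNF-α at 5 ng/ml, and knock-down after the same stimulation. A single clone was selected per shRNA, so the effect of the knock-down and a difference between clones cannot be told apart, and unstimulated knock-down cells were not analysed here. Values are log2 signals after robust multi-array averaging (RMA), so a difference of 1 is a doubling, and levels of different probe sets are not on a common scale.

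Elastic fibres give skin, lung and arteries their recoil. Fibroblasts and smooth muscle cells secrete a scaffold of fibrillin microfibrils, onto which fibulins guide the soluble elastin precursor, and lysyl oxidases then convert lysines of elastin and collagen into the aldehydes from which cross-links form. Fibrillins and the latent TGF-β binding proteins also hold TGF-β in the matrix, and TGF-β in turn is a well-known inducer of elastin and lysyl oxidase genes in fibroblasts.

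Promoter sequences are shown for the measured fibulins because this is the branch of the family in which members differed most in their knock-down response. Windows of 5 of the 10 members were taken from the RefSeq table (GRCm38.p6), from 250 bases before to 50 bases after a transcript start. Eln, Fbn2, Lox, Loxl1 and Loxl2 were not among them. The windows of Fbn1 and Efemp2, genes that were not measured, are not shown. Fbln1 and Fbln5 had 2 windows each, and the one with more motif matches is shown. Each line below gives 1 window, 5′ to 3′ on the strand of the gene, in lower case with motif matches in capitals. The windows are chr15:85205758-85206057 (plus strand) for Fbln1, chr6:91212514-91212813 (plus strand) for Fbln2, and chr12:101819070-101819369 (minus strand) for Fbln5.
Fbln1: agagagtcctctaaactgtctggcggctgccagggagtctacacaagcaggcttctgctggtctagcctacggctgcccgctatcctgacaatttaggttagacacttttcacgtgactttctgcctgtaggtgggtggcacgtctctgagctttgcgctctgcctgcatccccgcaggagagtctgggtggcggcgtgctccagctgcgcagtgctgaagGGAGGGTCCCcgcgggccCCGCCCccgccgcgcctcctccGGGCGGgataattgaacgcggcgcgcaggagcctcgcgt
Fbln2: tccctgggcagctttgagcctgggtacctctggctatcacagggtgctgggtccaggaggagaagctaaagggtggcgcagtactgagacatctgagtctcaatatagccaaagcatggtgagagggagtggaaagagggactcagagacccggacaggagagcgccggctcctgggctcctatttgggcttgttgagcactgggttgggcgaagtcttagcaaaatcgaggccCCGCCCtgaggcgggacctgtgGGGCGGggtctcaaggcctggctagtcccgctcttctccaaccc
Fbln5: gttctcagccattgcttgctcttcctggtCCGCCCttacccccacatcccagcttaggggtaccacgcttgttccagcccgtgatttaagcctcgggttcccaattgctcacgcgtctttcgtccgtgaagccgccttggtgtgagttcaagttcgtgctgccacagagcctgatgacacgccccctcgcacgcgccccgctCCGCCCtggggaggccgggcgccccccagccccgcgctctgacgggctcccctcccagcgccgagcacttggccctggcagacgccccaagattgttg

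Both strands were searched for a TATA box with the letters TATAAA, an AP-1 motif with the letters TGANTCA where N is any base, a GC box with the letters GGGCGG, and the NF-κB motif. Positions are those of the first base of a match relative to the transcript start. Fbln1 held GC boxes at -11 and 11 and an NF-κB motif match at -29, Fbln2 held GC boxes at -16 and 6, and Fbln5 held GC boxes at -221 and -48. None of these 3 windows held a TATA box or an AP-1 motif, and no match overlapped another. Of all 32851 mouse promoter windows of this length, 35.7% held a GC box, 13.6% held a TATA box, 7.81% held an AP-1 motif and 8.46% held the NF-κB motif. GC boxes thus stood in the windows shown for fibulins that fell and for one that did not pass the test. For Fbln1 and Fbln5 these windows were picked by their matches, so the shares over all windows are not a like background. The other window of Fbln1 held only an NF-κB motif match, at 30 from its own start, and that of Fbln5 held no match. The windows of Fbn1 and Efemp2 held matches to the GC box only. The letters mark no binding site.

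The arrays were close to each other, with medians between 4.47 and 4.59. Correlations over all probe sets ran from 0.985 to 0.992 within groups and from 0.981 to 0.991 between groups. Up to 8.26% of probe sets had the same value on 2 arrays of a group. The labels were checked by the targeted gene. Med17 read 7.98, 7.93 and 7.77 in stimulated wild type and 6.35, 6.22 and 6.17 in the knock-down, a difference of -1.64 (limma adjusted p = 4.8e-05). Tnfaip3 and Nfkbia, NF-κB feedback inhibitors, rose by 4.50 and 2.56 after TNF-α in wild type, both past the test used below. All 8 fibroblast markers lay above 5.02, the median of the annotated probe sets, in every group. The log2 of their summed signal was 14.27 to 14.49, 14.22 to 14.41 and 14.25 to 14.42 in the 3 groups in the order above. The brightest markers weigh most in this sum. Of the markers of other cells, 4 of 6 for smooth muscle, 1 of 5 for leukocytes, 1 of 5 for epithelium and 0 of 5 for endothelium lay above that median in each group. Within the fibroblast list, knock-down cells had less Pdgfra (-1.89, adjusted p = 9.5e-05) and more Thy1 (2.09, adjusted p = 0.000479) and S100a4 (0.55, adjusted p = 0.0106), and the part of these differences in the results below was not tested.

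The first question was whether 1 h of TNF-α altered these genes in wild-type fibroblasts. None of the 7 measured members passed the test (limma on all 9 arrays, adjusted p under 0.05), and 0 of 7 had an unadjusted p under 0.05. Over all 23410 probe sets tested, 0.115% passed and 7.10% had an unadjusted p under 0.05. The differences ran from -0.18 for Fbln5 to 0.20 for Eln, with a median of -0.05 against -0.02 over all probe sets tested. For Loxl1 the 95% interval of the difference ran from -0.24 to 0.13 and for Fbln2 from -0.31 to 0.08, whereas for Fbln5 it ran from -0.80 to 0.44.

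The second question was which of these genes differed between Trap-80 knock-down and wild-type cells after stimulation. Fbn2, Fbln1, Fbln2 and Lox fell in the knock-down, to between 29.6% and 51.4% of the wild-type signal, and all 3 knock-down arrays lay below all 3 wild-type arrays for each of them. Loxl1, Fbln5 and Eln did not pass, and their arrays overlapped, for Loxl1 only by an equal value. Thus 4 of 7 members were lower and 0 of 7 higher, where 2.60% of all probe sets tested passed as lower and 3.36% passed as higher. The members were chosen with earlier results of these data known, so the counts and shares here are a description only. Separation of the 3 knock-down from the 3 wild-type arrays, in either direction, was seen for 20.9% of all probe sets tested. Among the 11705 probe sets above the median signal, tested alone, 680 passed as lower, with 4 members among them. The median difference of the members was -0.96, against -0.02 over all probe sets tested. In RNA of a whole culture, fewer cells that express a gene and less RNA per cell cannot be told apart.

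**Figure D1:**
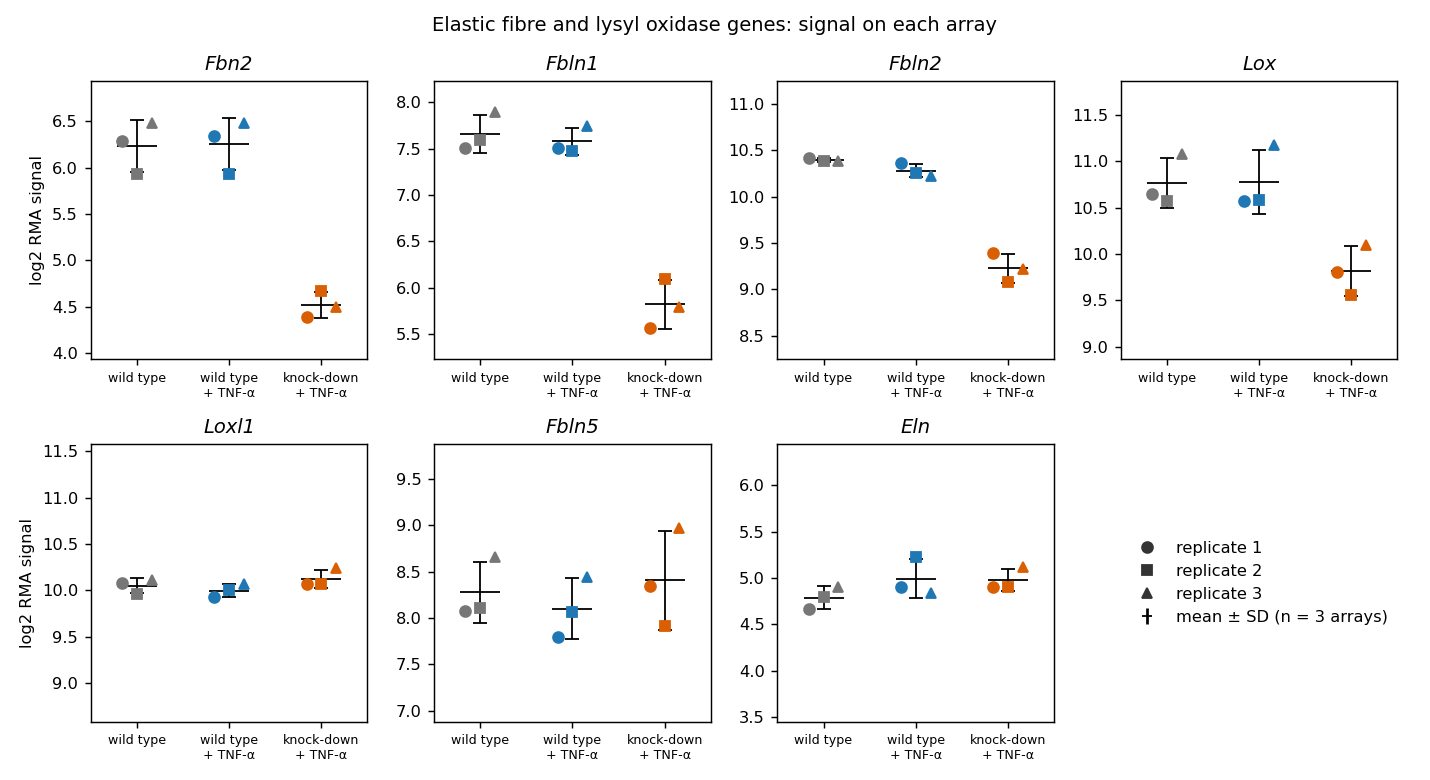
Log2 RMA signal (y axis) of the 7 measured genes on each array, in wild type, stimulated wild type and stimulated knock-down (x axis). Symbols are replicates 1 to 3, and the bars are the mean ± SD of 3 arrays. Every panel spans the same 3 log2 units. The knock-down arrays of Fbn2, Fbln1, Fbln2 and Lox lie below all wild-type arrays, while those of Loxl1, Fbln5 and Eln overlap with them.

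Fbn2 encodes fibrillin-2, the microfibril protein that predominates in the embryo. Its signals were 6.29, 5.94 and 6.49 in unstimulated wild type, 6.34, 5.94 and 6.49 in stimulated wild type, and 4.39, 4.67 and 4.50 in the knock-down. The wild-type groups coincided and the knock-down stood apart below both. Group means were 6.24 ± 0.28, 6.26 ± 0.28 and 4.52 ± 0.15 (SD, n = 3 each). The knock-down difference was -1.74 (SE 0.17, 95% interval -2.12 to -1.35, adjusted p = 0.000687), or 30.0% of wild type, and it ranked 62 among the 23410 probe sets by size. The knock-down mean lay below 5.02, the median of the annotated probe sets, and at dim signals the size of a difference is less certain than its direction.

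Fbln1 encodes fibulin-1, a matrix glycoprotein found in elastic fibres and basement membranes. It read 7.50, 7.59 and 7.89 without stimulation, 7.51, 7.48 and 7.75 with TNF-α, and 5.57, 6.10 and 5.80 in the stimulated knock-down. No wild-type array came within 1 log2 unit of the knock-down arrays. Group means were 7.66 ± 0.20, 7.58 ± 0.15 and 5.82 ± 0.27 (SD, n = 3 each). At -1.76 (SE 0.15, 95% interval -2.10 to -1.42, adjusted p = 0.000429) this was the largest difference of the 7, a signal of 29.6% of wild type. The NF-κB motif match shown above for its promoter window stood beside a TNF-α difference of -0.08 (95% interval -0.42 to 0.26, adjusted p = 0.912).

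Fbln2 encodes fibulin-2, which binds fibrillin microfibrils and elastin. It gave 10.42, 10.38 and 10.38 in unstimulated wild type, 10.36, 10.26 and 10.22 in stimulated wild type, and 9.39, 9.07 and 9.22 in the knock-down. The stimulated wild-type arrays all lay just below the unstimulated ones, a difference of -0.11 that did not pass (adjusted p = 0.785), and 6.18% of all probe sets tested showed such a separation downwards. The knock-down arrays lay about a log2 unit lower. Their mean was 9.23 ± 0.16 against 10.28 ± 0.07 (SD, n = 3 each), a difference of -1.05 (SE 0.09, 95% interval -1.25 to -0.86, adjusted p = 0.000355), or 48.2% of wild type.

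Fbln5 encodes fibulin-5, an integrin-binding fibulin that delivers elastin to microfibrils. Its signals were 8.07, 8.11 and 8.66, then 7.79, 8.06 and 8.44 with TNF-α, and 8.34, 7.91 and 8.97 in the knock-down. In each group the third replicate was highest, and the groups overlapped. The knock-down difference of 0.31 (SE 0.27, 95% interval -0.31 to 0.92, adjusted p = 0.649) excludes a fall of the size seen for Fbln1 and Fbln2, but it leaves room for a rise.

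Fbln1, Fbln2 and Fbln5 were also compared with each other inside each array. The change of Fbln1 relative to Fbln5 between stimulated wild type and knock-down was -2.06, that of Fbln2 relative to Fbln5 -1.36, and that of Fbln1 relative to Fbln2 -0.71. In each of these pairs the 3 knock-down arrays lay below the 3 wild-type arrays. The exact two-sided permutation test gave p = 0.1 for each (adjusted p = 0.1 over the 4 pairs compared), the smallest value that 3 arrays against 3 allow.

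Eln encodes tropoelastin, the soluble precursor of the elastic core. It read 4.67, 4.80 and 4.91, then 4.91, 5.23 and 4.84 with TNF-α, and 4.91, 4.91 and 5.11 in the knock-down. All groups overlapped, and the mean over the 9 arrays, 4.92, lay below 5.02, the median of the annotated probe sets. The knock-down difference was -0.02 (SE 0.12, 95% interval -0.28 to 0.25, adjusted p = 0.973). At a signal this dim a change of the transcript may not be visible on the array.

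Among the oxidases, Lox encodes lysyl oxidase itself, secreted as a proenzyme. It gave 10.64, 10.58 and 11.08 in unstimulated wild type, 10.58, 10.58 and 11.18 after TNF-α, and 9.81, 9.55 and 10.10 in the knock-down. All knock-down arrays lay below all wild-type arrays, and the third replicate was highest in every group. The means were 10.77 ± 0.27, 10.78 ± 0.35 and 9.82 ± 0.27 (SD, n = 3 each). The knock-down difference was -0.96 (SE 0.21, 95% interval -1.42 to -0.50, adjusted p = 0.026), or 51.4% of wild type.

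This call was not stable when single arrays were left out. Without replicate 1 or 2 of the knock-down the adjusted p of Lox was 0.0857 or 0.0999, without replicate 1, 2 or 3 of stimulated wild type it was 0.054, 0.0517 or 0.0596, and only without replicate 3 of the knock-down did it stay under 0.05 (0.0361). The difference itself stayed between -1.10 and -0.76. With the replicate number as a block the adjusted p was 0.000444, and the differences between arrays of the same number were -0.77, -1.03 and -1.08.

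Loxl1 encodes the lysyl oxidase that fibulin-5 tethers to elastin. Its signals were 10.08, 9.96 and 10.11, then 9.92, 9.997 and 10.06 with TNF-α, and 10.06, 10.06 and 10.24 in the knock-down. The groups lay within a narrow band, and the knock-down arrays overlapped with unstimulated wild type. None lay below a stimulated wild-type array, and the stimulated groups met at an equal value of 10.0628. The knock-down difference was 0.13 (SE 0.08, 95% interval -0.05 to 0.31, adjusted p = 0.486), so the interval excludes a fall like that of Lox. Relative to Loxl1 on the same array, Lox changed by -1.09, with every knock-down array below every wild-type array (exact two-sided permutation p = 0.1, the smallest possible here).

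**Figure D2:**
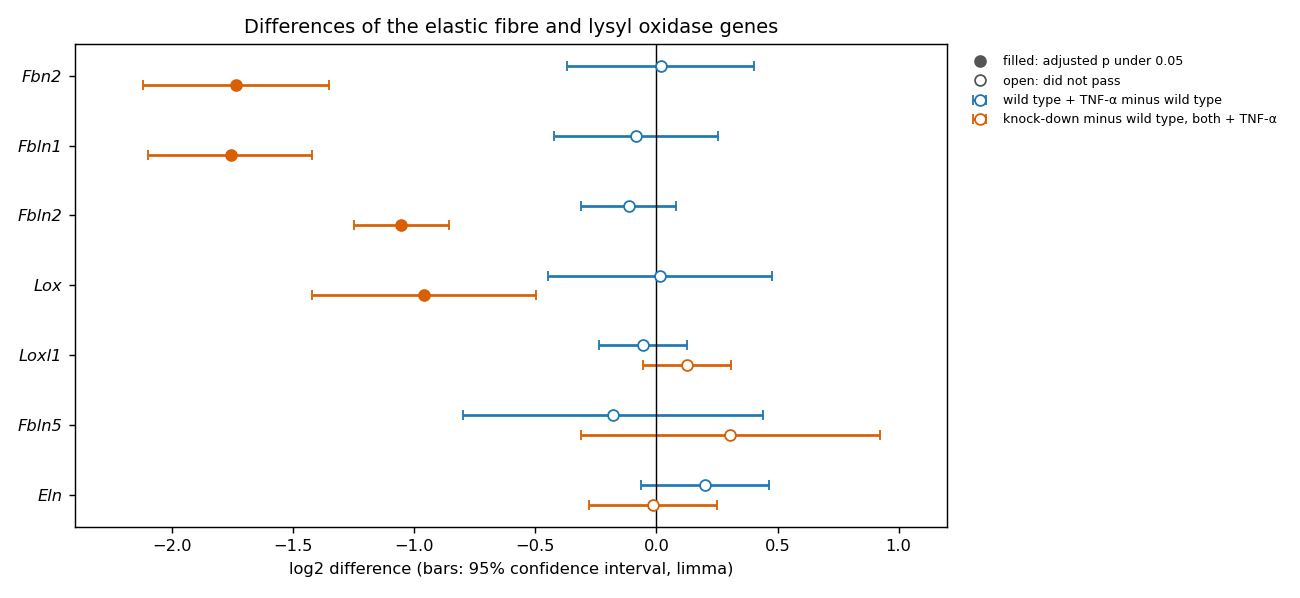
Log2 differences (x axis) of the 7 measured genes (y axis) for the TNF-α response of wild type and for stimulated knock-down against stimulated wild type, as points with 95% confidence intervals from limma. Filled points passed an adjusted p of 0.05. All TNF-α intervals include 0, and the knock-down intervals of Fbn2, Fbln1, Fbln2 and Lox lie wholly below it.

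The third comparison set the stimulated knock-down against unstimulated wild type. It shares the knock-down arrays with the comparison above, so its values are not a second measurement of the knock-down. Fbn2 differed by -1.72 (adjusted p = 0.000544), Fbln1 by -1.84 (adjusted p = 0.000262), Fbln2 by -1.17 (adjusted p = 0.000163) and Lox by -0.95 (adjusted p = 0.0217). Again these 4 of 7 passed as lower, where 4.62% of all probe sets tested did, and this too is a description only. Of the 11705 probe sets above the median signal, tested alone, 1239 passed as lower. Fbln5 (0.13, adjusted p = 0.85), Loxl1 (0.07, adjusted p = 0.684) and Eln (0.19, adjusted p = 0.432) did not pass. For Lox the adjusted p passed 0.05 without replicate 1 or 2 of the knock-down (0.0754 and 0.0826) and without replicate 1 or 3 of unstimulated wild type (0.0583 and 0.0603).

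Genes that work with these proteins were followed in 6 lists of 58 genes, all of them measured. None of the 58 passed the test for TNF-α, and 4 had an unadjusted p under 0.05. In the knock-down comparison 7 were higher and 4 lower, 11 in all or 19% of the list, and the median difference was -0.06. Of all probe sets tested 5.96% passed, but the list was not matched to them for signal. Among the 11705 probe sets above the median signal, tested alone, 1584 passed, and 10 list genes passed there. List genes below that median, Mfap5 and Mmp9 among them, were not tested there, so the 10 are not all among the 11. The lists were also drawn up after earlier results of these data were known, so these shares are a description only. With the replicate number as a block 10 were higher and 7 lower, and these included the 11. The 6 that were added are Emilin1, Ltbp3, Adamts10, Mmp2, Timp3 and Itga5.

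Of the 16 microfibril and elastic fibre partners, 2 fell and 1 rose, with a median of -0.11. Ltbp4, a latent TGF-β binding protein needed for elastic fibre assembly with fibulin-5, read 6.23, 5.88 and 6.11 in stimulated wild type and 5.07, 4.82 and 4.96 in the knock-down (-1.12, adjusted p = 0.000479). The knock-down mean of Ltbp4, 4.95, lay below 5.02, so the size of this fall is less certain than its direction. Mfap5, a microfibril-associated glycoprotein, read 5.09, 4.91 and 5.19 and then 4.51, 3.55 and 3.56 (-1.19, adjusted p = 0.0258). Its knock-down arrays were dim, below 5.02, so the size of this fall is uncertain. Efemp1 (fibulin-3) went the other way from Fbln1 and Fbln2.

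Efemp1 gave 8.58, 8.90 and 9.74 in stimulated wild type and 10.34, 10.25 and 10.90 in the knock-down (1.42, adjusted p = 0.0416). The knock-down arrays all lay above, although the wild-type arrays spread over more than 1 log2 unit. Of the brightest partners, the latent TGF-β binding protein genes Ltbp1 (-0.28, adjusted p = 0.111), Ltbp2 (-0.17, adjusted p = 0.594) and Ltbp3 (0.44, adjusted p = 0.0916) did not pass. Nor did the elastin-binding Emilin1 (-0.58, adjusted p = 0.294) and the protease Adamts10 (0.41, adjusted p = 0.128). With the replicate block Ltbp3 (adjusted p = 0.0105) and Adamts10 (adjusted p = 0.0337) passed as higher and Emilin1 (adjusted p = 0.012) as lower. Against unstimulated wild type Ltbp1 passed as lower (-0.36, adjusted p = 0.0304), a call lost without any 1 of the 6 arrays except replicate 1 of the knock-down.

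The list of other lysyl oxidases and maturation factors had 8 genes, of which 2 rose, with a median of 0.10. Loxl4, a lysyl oxidase of the branch with scavenger receptor domains, gave 7.46, 7.64 and 7.64 in stimulated wild type and 8.16, 8.31 and 8.20 in the knock-down (0.64, adjusted p = 0.00671), and its dimmer second probe set moved the same way (1.24, adjusted p = 0.00862). Pcolce2, an enhancer of procollagen C-proteinase, rose by 1.00 (adjusted p = 0.0113). Loxl3 (-0.35, adjusted p = 0.172), Bmp1, the protease that activates the lysyl oxidase proenzyme (-0.19, adjusted p = 0.366), and Pcolce (0.10, adjusted p = 0.777) did not pass. In the same cells, then, Lox was lower, Loxl4 was higher and Loxl1 did not pass.

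Of the 10 TGF-β ligands, receptors and Smads, 2 rose and 1 fell, with a median of 0.01. Tgfb1, the ligand, read 7.06, 6.75 and 7.07 in stimulated wild type and 7.69, 7.97 and 7.56 in the knock-down (0.78, adjusted p = 0.00681). The signal transducer Smad3 rose by 0.61 (adjusted p = 0.0399) and the co-receptor Tgfbr3 fell by 0.80 (adjusted p = 0.00216). Tgfbr2 (-0.09, adjusted p = 0.841), Smad4 (-0.02, adjusted p = 0.915) and Smad2 (0.04, adjusted p = 0.807) did not pass. The inhibitory Smad7 passed only against unstimulated wild type (1.12, adjusted p = 0.00145). Its difference between the stimulated groups was 0.41 (adjusted p = 0.145), and its TNF-α difference in wild type was 0.72 (adjusted p = 0.166).

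Of the 12 elastin-degrading proteases and inhibitors, 1 fell and none rose, with a median of -0.13. That was Mmp9, a gelatinase, which was dim at 4.90, 4.71 and 5.13 in stimulated wild type and 4.50, 3.93 and 4.16 in the knock-down (-0.72, adjusted p = 0.0261). Its TNF-α difference in wild type was 0.52 (adjusted p = 0.587), and against unstimulated wild type the knock-down gave -0.20 (adjusted p = 0.537). The gelatinase Mmp2 (-0.54, adjusted p = 0.14) did not pass, although its knock-down arrays all lay below those of wild type, and nor did the metalloprotease inhibitors Timp1 (-0.11, adjusted p = 0.797), Timp2 (-0.19, adjusted p = 0.285) and Timp3 (-0.66, adjusted p = 0.165). With the replicate block Mmp2 (adjusted p = 0.0115) and Timp3 (adjusted p = 0.00132) passed as lower.

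Of the 7 cell-surface receptors, 2 rose, with a median of 0.07. These were the integrin chains Itgb5 (0.71, adjusted p = 0.0106) and Itgb3 (0.68, adjusted p = 0.037), which pair with the αv chain. Itga5 gave 0.50 (adjusted p = 0.0741, and 0.0495 with the replicate block) and passed against unstimulated wild type (0.77, adjusted p = 0.00921). Itgb1 (-0.15, adjusted p = 0.325) and Itgav (-0.03, adjusted p = 0.921) did not pass. None of the 5 fibrillar collagens passed, 0 of 5 had an unadjusted p under 0.05 (17.4% of all probe sets tested did), and their median was -0.07. For Col1a1, a main substrate of lysyl oxidase beside elastin, the difference was 0.10 (95% interval -0.08 to 0.28, adjusted p = 0.602).

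**Figure D3:**
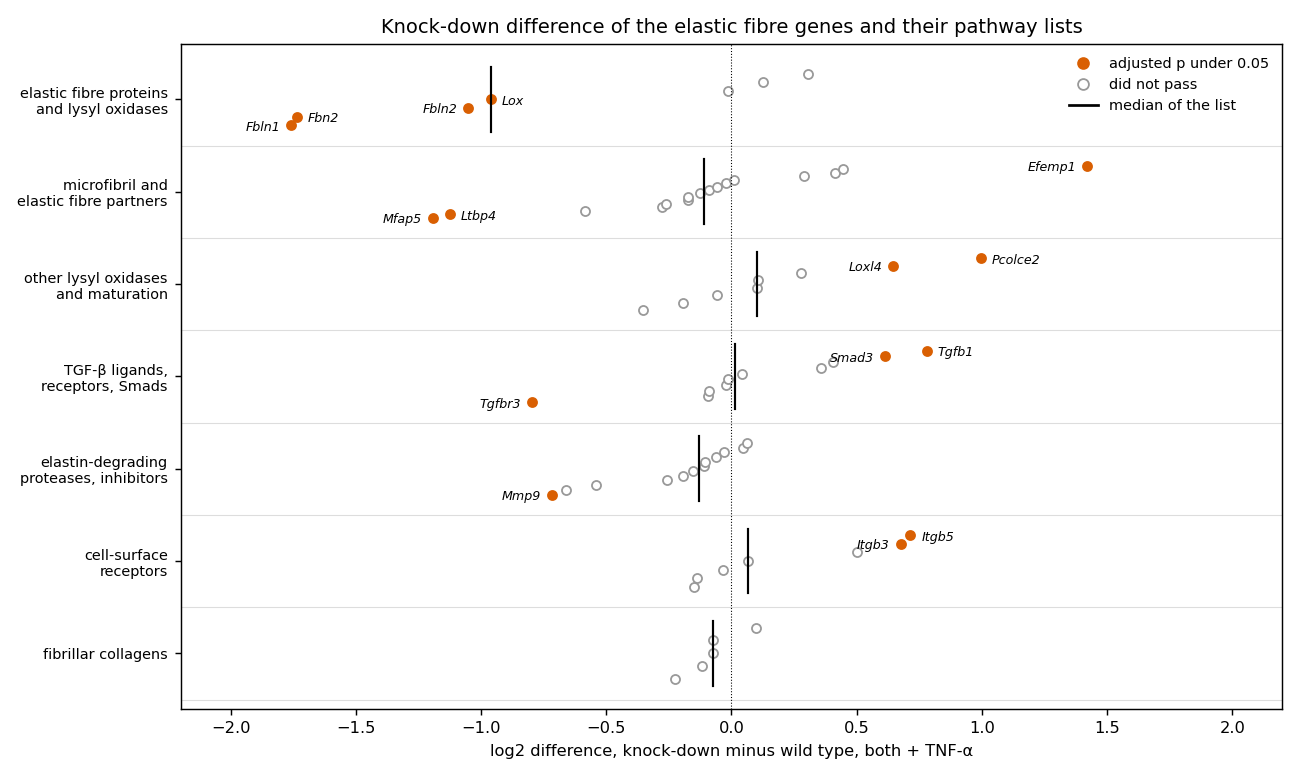
Log2 difference between knock-down and wild type, both with TNF-α (x axis), for the 7 measured genes and the 58 genes of 6 pathway lists (rows). Each point is a gene, filled and named if its adjusted p was under 0.05, and the vertical line in each row is the median of the list. The elastic fibre genes have a median of -0.96, and the medians of the 6 other lists lie between -0.13 and 0.10.

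The calls of Ltbp4, Loxl4, Tgfb1 and Tgfbr3 held when any 1 of the 6 stimulated arrays was left out. Those of Efemp1, Smad3 and Itgb3 were lost without any 1 of them except replicate 3 of wild type, and that of Mfap5 without any 1 except replicate 1 of the knock-down. Mmp9 kept its call only without replicate 1 of the knock-down or replicate 2 of wild type, Pcolce2 lost it without replicate 2 of the knock-down (adjusted p = 0.0514), and Itgb5 lost it without replicate 1 of wild type (adjusted p = 0.0519).

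The gene patterns most like that of Fbln1, the member with the largest knock-down difference, were found by the root mean square distance between mean-centred log2 signals over the 9 arrays, among 19937 genes. Nearest was Foxd1, a forkhead transcription factor, at a distance of 0.15. Fbn2 was next at 0.158, followed by the receptor chain gene Il20ra at 0.178, Nynrin at 0.205 and the glutamate transporter gene Slc1a3 at 0.211. In the knock-down Foxd1 differed by -1.57 (adjusted p = 0.000522), Il20ra by -1.44 (adjusted p = 0.00257), Nynrin by -1.57 (adjusted p = 0.00714) and Slc1a3 by -1.73 (adjusted p = 0.00258). A likeness over 9 arrays of 3 groups is mostly that of the 3 group means, and it is a description only.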

How the data were processed

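RNA from 9 cultures was hybridised to Affymetrix Mouse Gene 1.0 ST arrays. The deposited values are log2 signals that the authors made by RMA, which corrects the background, equalises the distribution of the arrays and summarises probes into probe sets. No genome build was found in the labels or methods. Of 35557 probe sets, 21789 had 1 gene symbol in the platform annotation, 1621 had several and 12147 had none. The 23410 with a symbol were tested.

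Groups came from the sample labels. A model with 1 mean per group was fitted to all 9 arrays with lmFit and eBayes (limma 3.58.1, R 4.3.3), two-sided, with Benjamini-Hochberg adjustment over all 23410 probe sets and a threshold of 0.05. Where a gene had several single-symbol probe sets, the brightest on average was used. Arrays give no read depth, and 3 arrays per group limit the precision: the median SE of a difference was 0.105. The fit was tested on simulated data with known changes.

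The members and all lists were chosen with earlier results of these data known. The text names all members, the list genes past the threshold, up to 3 of the brightest in a list that did not pass, the genes added by the block, and the 5 genes nearest to the member with the largest difference. Levels below 5.02, the median of annotated probe sets, were called dim.

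The fit above took no pairing of arrays, and a block for the replicate number was an alternative. Deviations from the group means of same-numbered arrays had correlations of 0.11 to 0.403 for TNF-α and 0.147 to 0.465 for the knock-down. Those of differently numbered arrays ran from -0.402 to 0.249 and from -0.392 to 0.16, so the ranges overlapped. Against unstimulated wild type the same-numbered correlations ran from 0.00218 to 0.221. The labels do not say what the number marks. Alternatives were the replicate block, only the 6 arrays compared, all probe sets, a filter on signal, centring, quantile normalization, an intensity trend, gene means and each array left out. Exact permutation tests used scipy 1.17.1.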

Additional observations from a re-analysis of the deposited data

How the results depend on the processing

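For the 7 elastic fibre and lysyl oxidase genes no alternative reversed a called difference, and Lox alone crossed the threshold. Members called ranged over the arrays left out from 3 to 4 in both knock-down comparisons and from 0 to 0 for TNF-α. Lox also failed in the knock-down comparison with only the 6 arrays compared (adjusted p = 0.062) and with all probe sets tested (0.0662), and against unstimulated wild type with all probe sets (0.0517). The replicate block changed no member's call, but of the 58 pathway genes 17 passed with it against 11 without. With all 35557 probe sets tested 6 passed, and the cause was not tested. Filtering to the brighter probe sets left Eln without a value.

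Over the whole array, calls in the knock-down comparison were 1395, and 2108 with the replicate block. They fell to between 738 and 1106 without 1 array. For TNF-α they were 27, 55 with the block, 9 with only the 6 arrays compared, 13 with all probe sets and 41 above the median signal. Centring the arrays on their medians moved the higher share of knock-down calls from 56.3% to 68.8%, with the members' calls unchanged at 4 lower.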
